A study of Sus scrofa with 6 samples.

Results

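Cell adhesion molecules of the immunoglobulin superfamily join neurons to each other and to their surroundings. Their outer parts carry immunoglobulin-like domains that bind the same or a related molecule on the next cell, and they act in axon outgrowth, bundling of axons, neuron migration and the building of synapses. In an early embryo they are best known from the neural tube, the ganglia and the growing nerves, although several are also found in muscle, kidney and epithelia. The 9 genes described here are NRCAM and NFASC of the L1 family, the contactin genes CNTN2 and CNTN5, NCAM1, the IgLON genes NTM and OPCML, the synaptic adhesion gene CADM1, and DSCAML1. They were chosen by symbol as neuronal members of the superfamily, and from results of this same comparison that were already known, including the higher NRCAM level in parthenotes. Their differences between the groups are therefore given as a description: no p-value is printed for them, and a call of one of the 9 is stated only as an outcome of the fit across all genes. All 9 symbols matched a pig Ensembl identifier in the count table of 1780 genes, and all 9 were among the 807 genes that passed the filter on low counts. A gene with under 10 counts in total would have been treated as not measured, and the lowest total here was the 291 counts of DSCAML1.

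RNA was sequenced from 3 whole parthenogenetic embryos and 3 whole control embryos, all of a Landrace x Yorkshire x Duroc cross and all at embryonic day 21. The parthenotes came from oocytes that electric pulses had activated without sperm, and they developed in surrogate gilts, so both chromosome sets were maternal. The controls are labelled untreated; their data columns carry the code AI-F, which no label explains, and how they were conceived is not read from it. The sources used here do not give the sex, litter and dam of any embryo. Differences in these cannot be told apart from parthenogenesis itself, and a p-value here sets a difference against the spread among 6 samples only. The genes analysed here are those of pig chromosome 9. Each library held 1364351 to 1484193 counts in parthenotes and 1193714 to 1397613 counts in controls. Values are given as CPM, counts per 1000000 of the chromosome 9 reads after scaling between libraries, on which 3 counts correspond to 2.02 to 2.36 CPM. CPM is not corrected for transcript length, so levels are compared between samples and not between genes. PEG10, an imprinted gene expressed from the paternal copy, had a log2 fold change of -10.55 in parthenotes over controls, in the direction the group labels give. By a chi-square of counts per degree of freedom, control 1 and parthenote 1 were the libraries least like the others of their group. It was 52.8 and 61.0 for parthenote 1 against the other parthenotes, against 21.1 between those. For control 1 against the other controls it was 141 and 143, against 6.98 between those. This chi-square adjusts for library totals only, and abundant genes weigh most in it. The most abundant gene took 20.8% of the reads in control 1, against 8.29% and 8.47% in controls 2 and 3. Its part in the chi-square was not tested.

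The fitted log2 fold change of parthenotes over controls lay above 0 for all 9 adhesion genes, from 0.09 for DSCAML1 to 0.64 for NRCAM, with a median of 0.33. Over all 807 tested genes the median was 0.02, and 52.4% of the genes lay above 0. For 6 of the 9 genes, NRCAM, NFASC, CNTN2, NTM, NCAM1 and CADM1, each parthenote was above each control, which was so for 13.8% of all tested genes. Only NRCAM, 1 of the 9, was among the genes called at an adjusted p under 0.05 by edgeR's quasi-likelihood test. Of all tested genes 5.20% were called, and 1.61% were called as higher in parthenotes. Because the choice of the 9 used this comparison, nothing is read from these counts. In RNA of whole embryos, more cells of a type and more RNA per cell cannot be told apart.

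**Figure D1:**
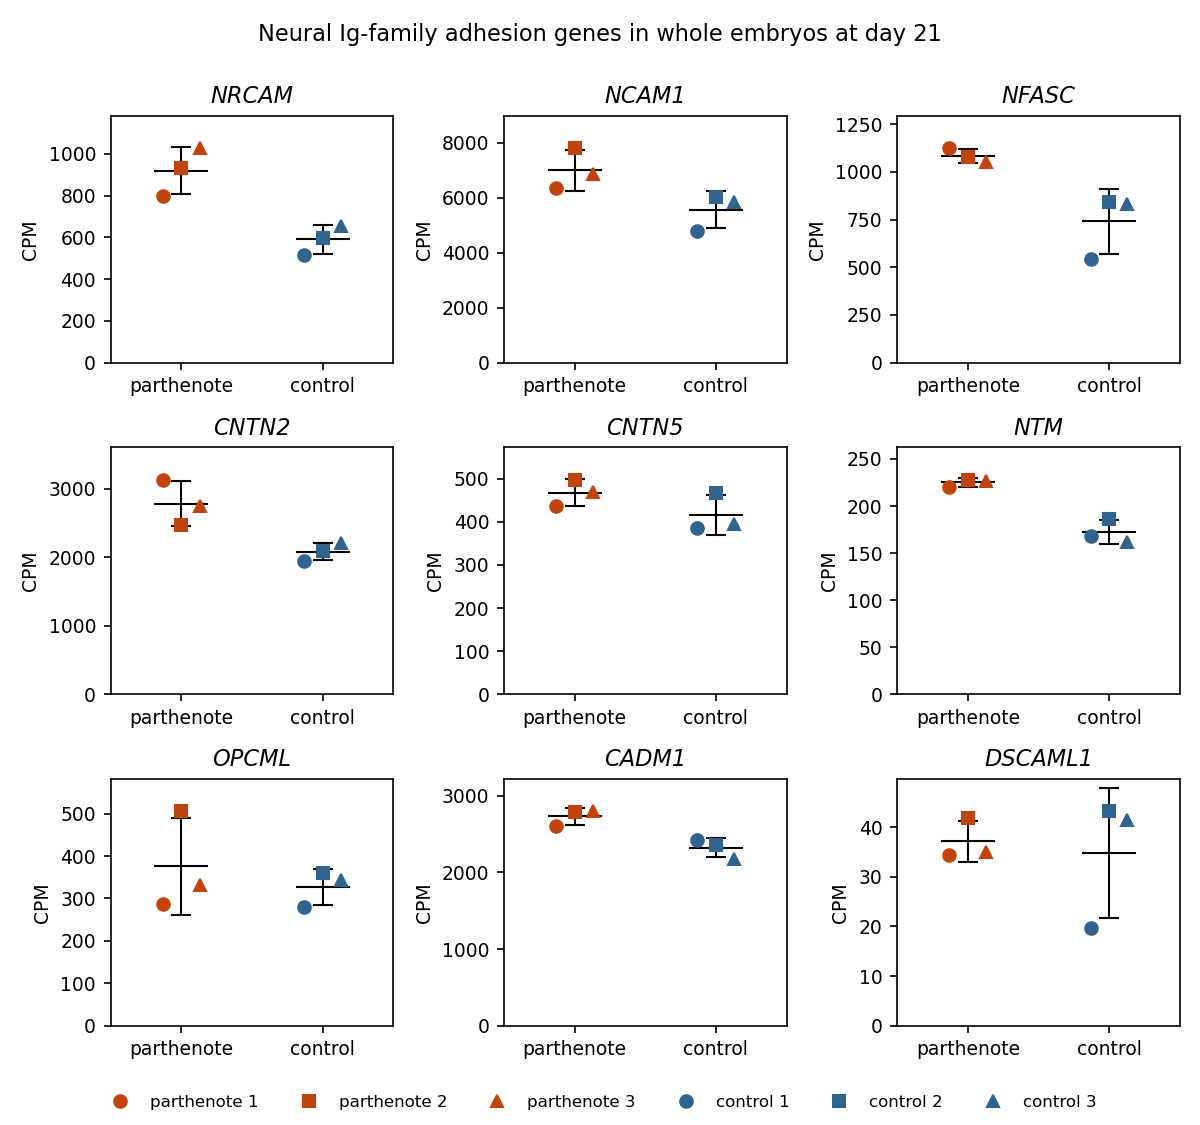
Level in CPM (vertical axes, each from 0) of the 9 adhesion genes in each parthenote (orange, left) and control (blue, right), with the mean and SD of the 3 libraries in black. The groups do not overlap for NRCAM, NCAM1, NFASC, CNTN2, NTM and CADM1, while OPCML is high in parthenote 2 at 506 CPM and DSCAML1 is low in control 1 at 19.7 CPM.

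NRCAM and NFASC belong to the L1 family, whose members span the membrane and hold on to the ankyrin and spectrin skeleton inside the cell. Both proteins gather at the axon initial segment and at nodes of Ranvier once axons mature, and NRCAM also takes part in axon guidance. NRCAM had 800, 934 and 1027 CPM in parthenotes 1, 2 and 3, against 516, 599 and 655 CPM in controls 1, 2 and 3. The groups did not overlap, and the lowest parthenote, parthenote 1, was 1.22 times the highest control. The means were 920 ± 114 CPM in parthenotes and 590 ± 70.1 CPM in controls (SD, n = 3 each), a log2 fold change of 0.64 ± 0.13 (SE) or 1.56-fold. This was the highest fold of the 9 genes. NRCAM (ENSSSCG00000015445) lies at positions 107928866 to 108248018 of chromosome 9 in Sscrofa11.1, by RefSeq's placement of the symbol.

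NFASC, which encodes neurofascin, had 1124, 1077 and 1049 CPM in the parthenotes, against 545, 844 and 831 CPM in the controls. The parthenotes were close together, with a coefficient of variation of 3.50%, while control 1 stood apart below the others and gave the controls one of 22.8%. With means of 1083 ± 37.9 CPM in parthenotes and 740 ± 169 CPM in controls (SD, n = 3 each), the log2 fold change was 0.55 ± 0.15 (SE). It was 0.37 without control 1 and 0.34 without both libraries numbered 1, so part of its size came from that control. Without control 1, where 42 of 816 tested genes were called, NFASC was called beside NRCAM. NFASC (ENSSSCG00000022951) lies at 65502565 to 65715612.

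Within each library the ratio of NRCAM to NFASC counts needs no scaling between libraries. It was 0.712, 0.867 and 0.979 in the parthenotes and 0.947, 0.711 and 0.788 in the controls, and the groups overlapped. The ratio of NRCAM to NCAM1 counts was 0.126, 0.120 and 0.150 in the parthenotes, against 0.108, 0.0993 and 0.112 in the controls. There the groups did not overlap: relative to NCAM1, NRCAM was higher in each parthenote.

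The contactins have no part inside the cell and are tethered to the membrane by a lipid anchor. CNTN2, also called TAG-1, marks the first axons to grow out, such as those of commissural neurons in the spinal cord of rodents, and later pairs with a CASPR protein beside the nodes. CNTN2 had 3131, 2471 and 2743 CPM in the parthenotes and 1951, 2084 and 2201 CPM in the controls. The lowest parthenote was parthenote 2, at 1.12 times the highest control. The means were 2782 ± 331 CPM in parthenotes and 2079 ± 125 CPM in controls (SD, n = 3 each), a log2 fold change of 0.42 ± 0.11 (SE). It was 0.33 without parthenote 1, the highest library, and 0.28 without both libraries numbered 1. CNTN2 (ENSSSCG00000040824) lies at 65737488 to 65776412.

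CNTN5, whose product is known from auditory and motor circuits of rodents, had 436, 498 and 470 CPM in the parthenotes, against 385, 468 and 394 CPM in the controls. The groups overlapped: control 2 lay above parthenote 1 and just below parthenote 3. The means were 468 ± 31.3 CPM in parthenotes and 416 ± 45.7 CPM in controls (SD, n = 3 each), a log2 fold change of 0.17 ± 0.12 (SE). With 1 library left out it ran from 0.12, without control 1 or parthenote 2, to 0.26, without control 2. The ratio of CNTN2 to CNTN5 counts was 7.18, 4.96 and 5.84 in the parthenotes and 5.06, 4.45 and 5.58 in the controls, with overlapping groups. CNTN5 (ENSSSCG00000014975) is the longest locus of the 9, spanning 1210 kb at 30259603 to 31469860.

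NCAM1, the neural cell adhesion molecule, binds its own kind on the next cell and carries polysialic acid, which loosens contacts while neurons migrate. In embryos it is also made by muscle, mesenchyme and the forming kidney. NCAM1 had 6342, 7798 and 6849 CPM in the parthenotes, against 4797, 6038 and 5838 CPM in the controls. The groups did not overlap, but they nearly touched, since parthenote 1 was 1.05 times control 2. The means were 6996 ± 739 CPM in parthenotes and 5557 ± 667 CPM in controls (SD, n = 3 each), a log2 fold change of 0.33 ± 0.13 (SE). NCAM1 (ENSSSCG00000015045) lies at 40628602 to 40960605. It held 42.3% to 47.7% of the reads of the 9 genes in parthenotes and 43.3% to 46.5% in controls, and these ranges overlap.

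NTM (neurotrimin) and OPCML (opioid binding protein/cell adhesion molecule-like) belong to the IgLON family, small lipid-anchored proteins that pair with each other on neurons and influence neurite growth and synapse number. NTM had 220, 228 and 227 CPM in the parthenotes and 168, 186 and 162 CPM in the controls. Its parthenotes agreed more closely than those of any other of the 9 genes, with a coefficient of variation of 1.96%. This is below the 5.44% that counting alone gives at the 338 reads of parthenote 3, the highest count of NTM. The means were 225 ± 4.42 CPM in parthenotes and 172 ± 12.7 CPM in controls (SD, n = 3 each), a log2 fold change of 0.39 ± 0.12 (SE). NTM (ENSSSCG00000015253) lies at 57965751 to 58967534.

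OPCML had 288, 506 and 333 CPM in the parthenotes, against 279, 359 and 343 CPM in the controls. Parthenote 2 stood above all other libraries, while parthenotes 1 and 3 lay within the range of the controls. With means of 376 ± 115 CPM in parthenotes and 327 ± 42.5 CPM in controls (SD, n = 3 each), the log2 fold change was 0.20 ± 0.21 (SE). It was -0.07 without parthenote 2, 0.10 without control 1 and 0.36 without parthenote 1. The 714 reads of parthenote 2 carry a counting error of 3.74% if each read is its own molecule. The other parthenotes had 377 and 495 reads, and the part of counting in this distance was not tested. OPCML (ENSSSCG00000037534) lies at 59037711 to 60141162, 70.2 kb from NTM. The ratio of NTM to OPCML counts was 0.764, 0.451 and 0.683 in the parthenotes and 0.602, 0.517 and 0.471 in the controls, with overlapping groups.

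CADM1, also called SynCAM1, forms contacts across the synapse and is also found in epithelia and mast cells. CADM1 had 2601, 2789 and 2799 CPM in the parthenotes, against 2422, 2358 and 2180 CPM in the controls. The groups did not overlap, with parthenote 1 at 1.07 times control 1. The means were 2730 ± 112 CPM in parthenotes and 2320 ± 125 CPM in controls (SD, n = 3 each), a log2 fold change of 0.23 ± 0.09 (SE), the smallest fold among the 6 genes whose groups did not overlap. Control 1 was the highest control for CADM1 and the lowest for NRCAM, NCAM1, NFASC, CNTN2, CNTN5, OPCML and DSCAML1. CADM1 (ENSSSCG00000031831) lies at 42644487 to 42984934.

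DSCAML1, which in the mouse retina keeps branches and cell bodies of like neurons apart, had the fewest reads. There were 45, 59 and 52 counts in the parthenotes and 25, 55 and 55 counts in the controls, or 34.4, 41.8 and 35.0 CPM against 19.7, 43.2 and 41.5 CPM. Control 1 was low, controls 2 and 3 lay above parthenotes 1 and 3, and parthenote 2 fell between those controls. With means of 37.1 ± 4.12 CPM in parthenotes and 34.8 ± 13.1 CPM in controls (SD, n = 3 each), the log2 fold change was 0.09 ± 0.31 (SE), and -0.19 without control 1. Counting alone gives an error of 13.0% to 20.0% per library here. The SE of 0.31 was above the log2 fold change of 0.23 seen for CADM1, so a difference of that size could not be told from 0 here. Without control 1 the SE was 0.22, and the parts of depth and of that library in it were not tested. DSCAML1 (ENSSSCG00000015082) lies at 44785142 to 45153256.

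**Figure D2:**
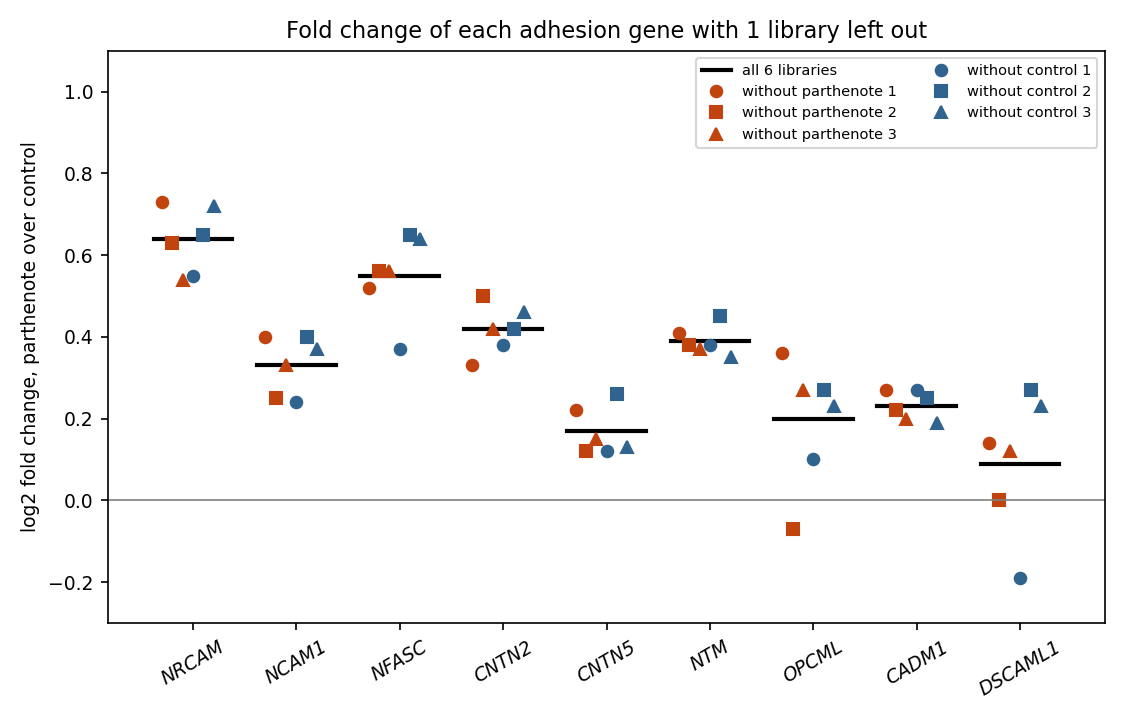
Log2 fold change of parthenotes over controls (vertical axis) for each adhesion gene with all 6 libraries (black bar) and with 1 library left out (orange for a parthenote, blue for a control). Values stay above 0 for 7 genes, while OPCML reaches -0.07 without parthenote 2 and DSCAML1 -0.19 without control 1.

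The fold changes of NRCAM, NCAM1, NFASC, CNTN2, CNTN5, NTM and CADM1 stayed above 0 under each of the 16 other settings tried, and those of OPCML and DSCAML1 did so under 15 and 13. With 1 library left out, the log2 fold change of NRCAM ran from 0.54 to 0.73, that of NCAM1 from 0.24 to 0.40 and that of NTM from 0.35 to 0.45. Which of the 9 genes were called did depend on the setting. It was NRCAM, NFASC and CNTN2 in DESeq2, which called 65 of 807 tested genes, and without a filter on low counts, where 55 of 1314 were called. It was NRCAM, NFASC and CADM1 without both libraries numbered 1, where 76 of 807 were called. It was none when scaled by library totals alone or when control 2, parthenote 2 or parthenote 3 was left out. Those 4 fits called 17 to 32 genes in all.

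The level of the 9 genes together was 14976, 16343 and 15533 CPM in parthenotes 1, 2 and 3, against 11082, 12980 and 12645 CPM in controls 1, 2 and 3, or 1.28-fold in the means. Before scaling, the genes held 1.43%, 1.69% and 1.56% of the chromosome 9 reads in the parthenotes and 1.01%, 1.39% and 1.32% in the controls. Control 1 was the lowest on both scales. The most abundant gene of the chromosome took 20.8% of the reads in control 1 and 8.29% and 8.47% in the other controls, against 19.1%, 15.4% and 18.0% in the parthenotes, and the part of this in the unscaled shares was not tested.

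On the chromosome the 9 genes lie apart, except for 2 pairs: NFASC and CNTN2 are 21.9 kb apart, and NTM and OPCML 70.2 kb. The other gaps between neighbours among them run from 1684 kb, between NCAM1 and CADM1, to 42152 kb, between CNTN2 and NRCAM. The ratio of NFASC to CNTN2 counts was 0.359, 0.436 and 0.382 in the parthenotes, against 0.279, 0.405 and 0.378 in the controls, with overlapping groups. The nearest tested genes with a symbol, up to 2 on each side of each adhesion gene, gave 28 further genes. Their log2 fold changes ran from -2.70 for PLET1 to 0.71 for IGSF9B, with a median of 0.10. Of the 28, 17 lay above 0, beside 52.4% of all tested genes. Of these 28 neighbours 1 was called in edgeR's test, beside 5.20% of all tested genes. It was PLET1, which was lower in parthenotes. Leaving out control 2 or 3 or parthenote 1 or 3 ended its call, at adjusted p-values of 0.0588 to 0.118. By RefSeq's placement, non-coding RNA genes overlap the spans of CNTN5, NTM and OPCML. The library kit does not mark the strand, so reads of an overlapping gene cannot be told apart from those of the adhesion gene. The values of CNTN5, NTM and OPCML are uncertain to that extent.

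Across the 6 libraries the genes with a level most like that of NRCAM were SP4, RNF169 and CDK6, with a Pearson r of log2 CPM of 0.990, 0.989 and 0.983 among 648 genes with a symbol. SP4 encodes a zinc finger transcription factor abundant in the nervous system, RNF169 a ubiquitin-binding protein of the DNA damage response, and CDK6 a kinase of the cell cycle. SP4 had 1021, 1068 and 1111 CPM in the parthenotes and 794, 831 and 886 CPM in the controls. The genes most like NCAM1 were GLCCI1, C11orf42 and COLGALT2, at 0.984, 0.976 and 0.970. Among the 9 genes, NTM and CADM1 were most alike (0.931), followed by NCAM1 and NFASC (0.891) and NRCAM and NCAM1 (0.887), while OPCML and CNTN2 had the lowest value (-0.013). These values are descriptions over 6 libraries in 2 groups, and they include the difference between the groups.

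Neuron markers of the same chromosome are set beside these values. The list was written with the results of MAP6, FEZ1 and AMPH known, so its counts are not independent evidence of a direction. Widely used pan-neuronal markers such as TUBB3 and ELAVL3 were not analysed here. Of 16 tested neuron markers 3 rose and 0 fell, and 14 had a log2 fold change above 0, with a median of 0.41. Over all 807 tested genes 1.61% were called as higher and 52.4% lay above 0, with a median of 0.02. The risers among the markers were MAP6, a microtubule-stabilising protein gene, FEZ1, which encodes an adaptor of axonal transport, and AMPH, which encodes amphiphysin of nerve endings. Their log2 fold changes were 0.55 ± 0.09, 0.49 ± 0.09 and 0.47 ± 0.10 (SE), with adjusted p-values of 0.00900, 0.0126 and 0.0283 in edgeR's test.

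AMPH did not pass in the 4 fits that left out control 2 or 3 or parthenote 2 or 3 (adjusted p 0.0906 to 0.131), FEZ1 in those that left out control 2 or 3 (0.0761 and 0.0699), and MAP6 in the fit that left out control 3 (0.0505). Scaled by library totals alone, AMPH and MAP6 did not pass (0.0948 and 0.0515). ASTN1, a gene of neuron migration, and the calcium channel genes CACNA1E and CACNA2D1 had log2 fold changes of 0.44 ± 0.19, 0.40 ± 0.23 and -0.02 ± 0.08 and did not pass. Without control 1, that of ASTN1 was 0.24 and that of CACNA1E 0.17. Summed over the list, neuron markers stood at 8437, 9528 and 8948 CPM in the parthenotes and 6089, 7282 and 7399 CPM in the controls, or 1.30-fold in the means, beside 1.28-fold for the 9 adhesion genes. ASTN1 and FEZ1, the most abundant markers, weigh most in the marker sum. Their means were 2760 and 1672 CPM in parthenotes and 2028 and 1191 CPM in controls. Whether the marker sum follows neural content was not tested, nor was the part of neural content in the differences of the adhesion genes. The libraries kept the same order within the parthenotes on both sums, with parthenote 2 highest and parthenote 1 lowest, and control 1 was the lowest control on both. Controls 2 and 3 changed places, with control 2 higher for the adhesion genes and control 3 for the markers. The sum of the other adhesion genes, given below, had the same parthenote order and lowest control. Control 1 was also the lowest control in the partner, muscle, mesenchyme and epithelium sums. In the endothelium sum it was the highest control, and in that of liver and yolk sac it lay between the others.

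**Figure D3:**
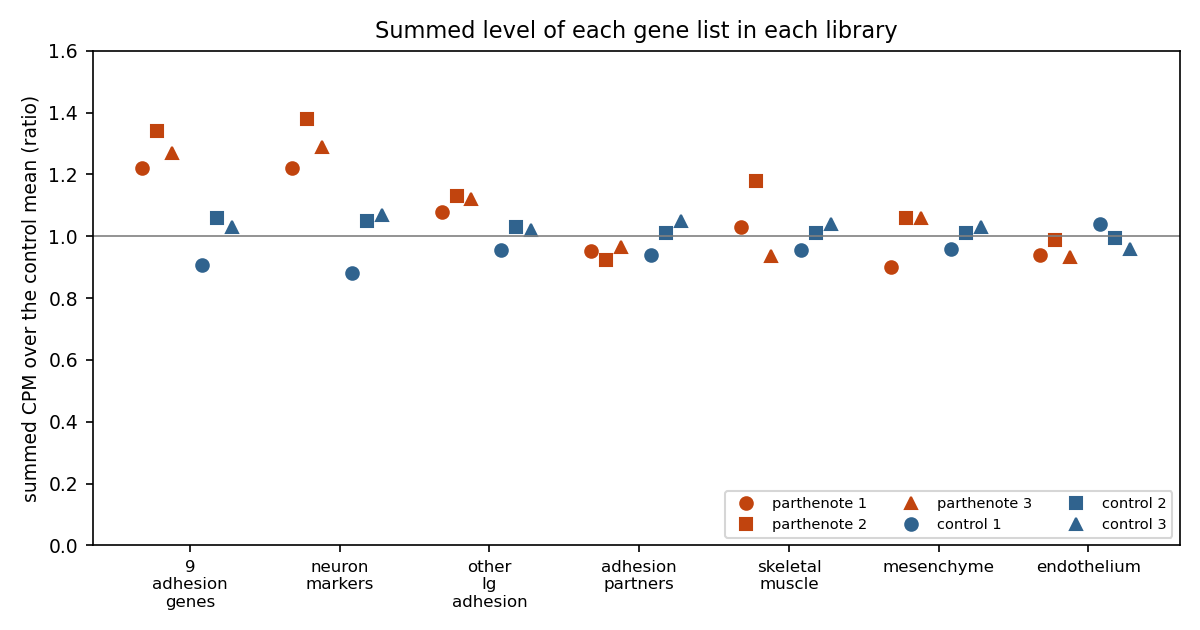
Summed CPM of each gene list in each library, divided by its mean over the 3 controls (vertical axis, a ratio from 0), with parthenotes in orange on the left and controls in blue on the right. The 9 adhesion genes (1.22 to 1.34 in parthenotes) and the neuron markers (1.22 to 1.38) lie above all controls, and so do the other adhesion genes (1.08 to 1.13, against 0.956 to 1.03 in controls), while the mesenchyme and endothelium sums overlap the controls.

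Markers of other cell types were few on this chromosome. The mesenchyme sum (COL1A2 and MEOX2) was 41286 to 48500 CPM in parthenotes and 43986 to 47157 CPM in controls, and the sum of the muscle genes MYOG and MYBPH was 1614 to 2027 CPM and 1645 to 1789 CPM, so both overlapped. COL1A2, of collagen I, had a log2 fold change of 0.00 ± 0.12, MYOG one of 0.15 ± 0.08, and ETS1, an endothelial and mesenchymal transcription factor gene, one of -0.01 ± 0.09. The endothelium sum was 4355 to 4610 CPM in parthenotes and 4482 to 4878 CPM in controls. Of its 4 genes 3 had a log2 fold change below 0 and 1 above, with a median of -0.09. For ESAM (-0.42 ± 0.11) and FLI1 (-0.16 ± 0.09) each parthenote lay below each control, and neither was called in edgeR's test. PROX1, the 1 measured marker of neural progenitors and also a gene of liver and lymph vessels, had 254 ± 20.7 CPM in parthenotes and 187 ± 52.9 CPM in controls (SD, n = 3 each), with a log2 fold change of 0.44 ± 0.21, or 0.22 without control 1, and did not pass. HEPACAM, the 1 glial marker present, had 13 counts over all libraries and was not tested.

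The epithelium sum was 450 to 469 CPM in parthenotes and 443 to 495 CPM in controls, and that of liver and yolk sac 26128 to 51368 CPM and 29039 to 33808 CPM. POU2F3, an epithelial transcription factor gene, fell to 6.77 ± 3.46 CPM in parthenotes, against 96.9 ± 10.5 CPM in controls (SD, n = 3 each; adjusted p 5.89e-05 in edgeR's test). APOC3, an apolipoprotein gene of liver and yolk sac, rose to 4059 ± 1149 CPM in parthenotes, against 1917 ± 252 CPM in controls (adjusted p 0.0178 in edgeR's test), and lost its call without any 1 of the controls (0.0567 to 0.0730). Of 7 listed red cell markers, only HBB was found by symbol in the count table. It had 281 ± 256 CPM in parthenotes and 1388 ± 612 CPM in controls (SD, n = 3 each), with each parthenote below each control. Its log2 fold change was -2.30 ± 0.78 (SE), with an adjusted p of 0.189 in edgeR's test (0.00550 without parthenote 2) and 0.0454 in DESeq2. Globin genes can share reads, and whether HBB follows red cell content was not tested. The part of these tissues in the differences of the adhesion genes was not tested.

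Other adhesion genes of the superfamily on the chromosome, from a list of 52, included 14 that were tested. Of these 1 rose and 0 fell, and 11 had a log2 fold change above 0, with a median of 0.17 against 0.33 for the 9 neural genes. Over all tested genes 1.61% were called as higher and 52.4% lay above 0. For 6 of the 14 each parthenote was above each control, beside 13.8% of all tested genes. The highest of the 14 was IGSF9B, at 0.71 ± 0.23 (SE), above the 0.64 of NRCAM. Its groups did not overlap, and it was not called (adjusted p 0.127 in edgeR's test). The sum of the 14 was 11083 to 11562 CPM in parthenotes and 9763 to 10503 CPM in controls, without overlap. The riser was ROBO3, a receptor that lets commissural axons cross the midline, with a log2 fold change of 0.48 ± 0.10 (SE) and an adjusted p of 0.0242 in edgeR's test. ROBO3 did not pass in the 4 fits that left out control 2 or 3 or parthenote 2 or 3 (adjusted p 0.0765 to 0.112) or when scaled by library totals alone (0.0973), and its direction was known when the list was written. The broadly expressed junction genes JAM3 and NECTIN1 had log2 fold changes of 0.12 ± 0.08 and 0.08 ± 0.09, and CDON, a co-receptor of hedgehog signals, one of 0.34 ± 0.11, and these 3 did not pass. With the replicate number as a block, CDON was called as well. The endothelial adhesion gene ESAM, named here because it lay lowest, had 328 ± 24.1 CPM in parthenotes and 440 ± 20.2 CPM in controls (SD, n = 3 each) with an adjusted p of 0.0677 in edgeR's test, and was called in DESeq2.

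Genes whose products bind or anchor these adhesion molecules, 11 of a list of 59, gave 0 calls in edgeR's test, with 1 gene at an unadjusted p under 0.05. DESeq2 called 1, APLP2, and limma-voom 0. APLP2, a relative of the amyloid precursor, had 6367 ± 327 CPM in parthenotes and 7770 ± 196 CPM in controls (SD, n = 3 each), with a log2 fold change of -0.29 ± 0.10 (SE) and an adjusted p of 0.138 in edgeR's test. RDX, which encodes the membrane-to-actin linker radixin, had a log2 fold change of 0.03 ± 0.10, and RELN, the gene of the guidance protein reelin, one of -0.22 ± 0.20. The summed level of the partners was 20407 to 21345 CPM in parthenotes and 20769 to 23174 CPM in controls, with a median log2 fold change of 0.11. Whether the lists differ from the 9 genes was not tested, because the 9 were chosen with this comparison known.

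**Figure D4:**
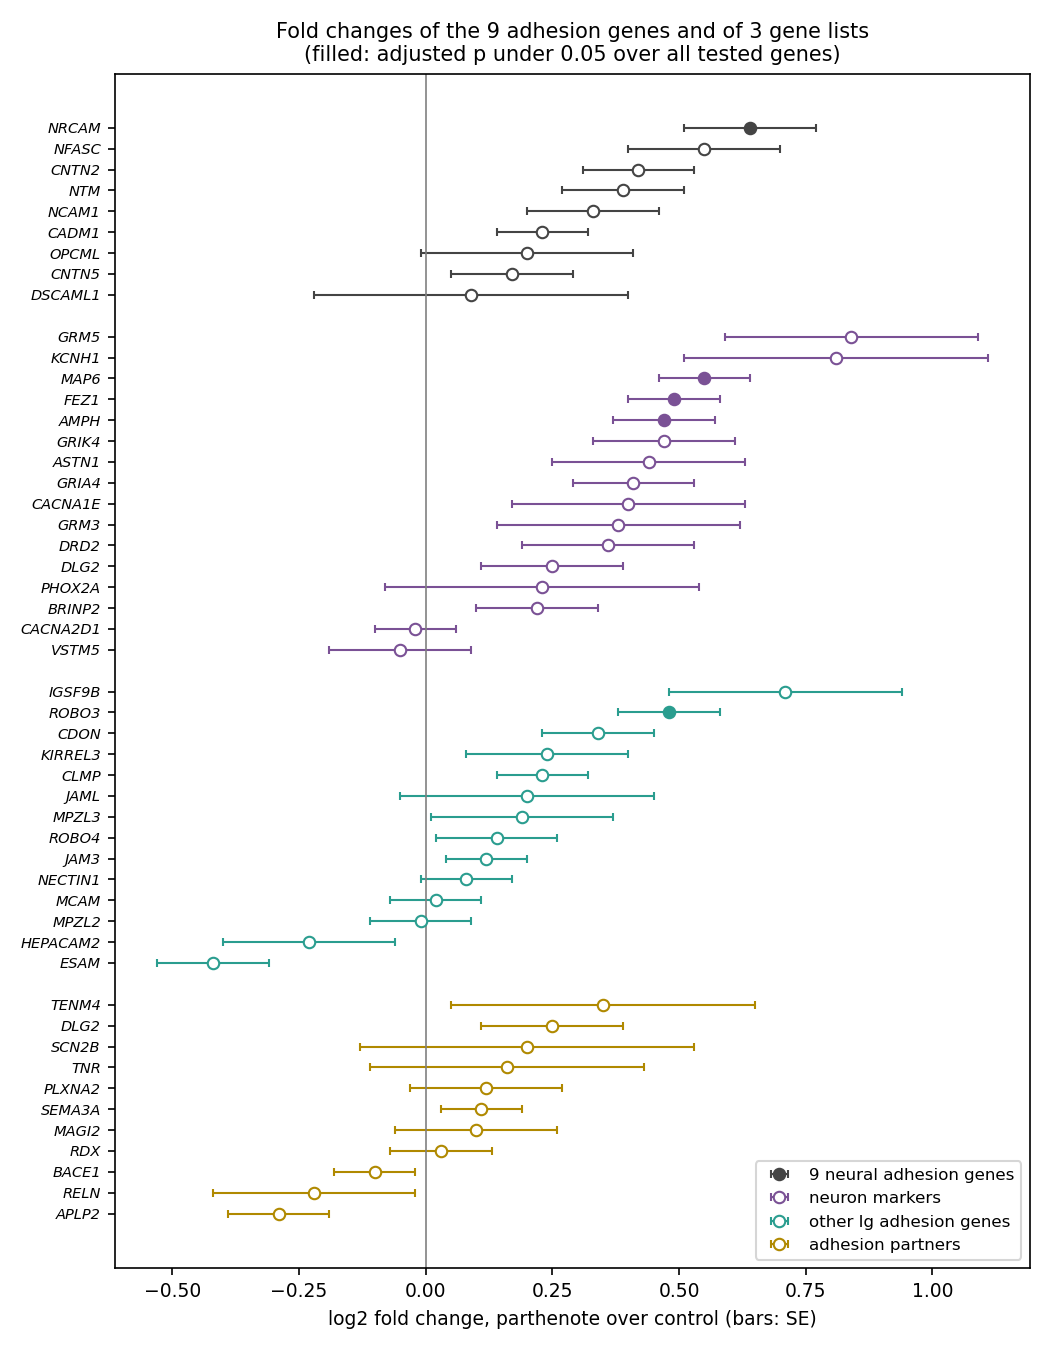
Log2 fold change of parthenotes over controls with its SE (horizontal axis) for the 9 adhesion genes and the tested genes of 3 lists, each in its own colour and filled where the adjusted p in edgeR's test was under 0.05. The 9 adhesion genes run from 0.09 to 0.64, beside neuron markers with a median of 0.41, other adhesion genes with one of 0.17 and adhesion partners with one of 0.11. DLG2 stands in the lists of neuron markers and of partners.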

How the data were processed

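Per the labels' protocols, total RNA of whole embryos went into TruSeq v2 libraries. The submitters' processing notes name HISAT2 2.1.0, SAMtools 1.9 and the build Sscrofa11.1. For the counting tool and annotation, the sources used here give nothing. The authors' table has raw read counts for each gene, as deposited. The authors' normalized signal, deposited in 6 further files, is a count multiplied by 1 factor per library (0.916 to 1.05). Divided by the factor, 100% of the 1190 values per library were within 0.01 of a whole read, and for the 9 genes these reads exceeded the table by 0 to 7.

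Symbols came from Ensembl identifiers for 779 of 1780 genes, and positions from RefSeq's table of Sscrofa11.1, matched by symbol for 688. A few genes are not reported here. The filter (filterByExpr, minimum count 10, minimum total 15) kept 807 genes with 99.9% of the counts. Counts were tested in edgeR 4.0.16 (R 4.3.3) with TMM scaling and a robust quasi-likelihood test, Benjamini-Hochberg adjusted over the 807 genes. The SE is the log2 fold change divided by the square root of its F statistic. Of the 807 genes 42 were called, 13 higher and 29 lower, or 5 and 27 when scaled by library totals alone.

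Counting errors and the floor of 3 counts cover counting only: without molecular identifiers, several reads may stem from 1 molecule. No libraries of a group agreed within sampling noise (chi-square per degree of freedom 6.98 to 143). The adhesion genes and the lists were chosen with earlier results of these data known. Named beside the 9 were, from each list, called genes and the most abundant others (3 in the neuron, adhesion and partner lists, and 1 in other lists with no call), and the 3 genes most like NRCAM and NCAM1. PLET1, IGSF9B, ESAM, FLI1 and PEG10 were named after their values were seen.

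Samples of both groups carry the numbers 1 to 3. Same-numbered samples deviated from their group means together, with a correlation across the 807 genes of 0.365, 0.272 and 0.147, so the numbers were taken as pairs in the blocked alternative. Parthenote 2 and control 3, whose numbers differ, reached 0.145, and the remaining pairs of unlike number -0.298 to 0.073. No label states such a pairing; it comes from the data. The other alternatives were 3 scalings, 2 filters, DESeq2 1.42.0, limma-voom (limma 3.58.1), the reads recovered from the normalized files, each library left out, and, chosen after seeing the data, both libraries numbered 1 left out. The tests were checked on simulated data.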

Additional observations from a re-analysis of the deposited data

How the results depend on the processing

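Of 144 log2 fold changes of the 9 adhesion genes under the 16 alternatives, 143 moved by less than the SD between replicates. The exception was CNTN2, at 0.28 without both libraries numbered 1. Leaving out 1 of 3 libraries can hardly move a group mean by that SD, so nothing is read from this count. The median over the 9 genes stayed between 0.25 and 0.40, and NRCAM, SP4, RNF169, PEG10, ROBO3, MAP6, FEZ1, AMPH, PLET1, POU2F3 and APOC3 kept their sign under these 16. The count of adhesion genes called, 1 as reported, was 0 with library totals, 3 without a filter, 3 in DESeq2 and 3 without both libraries numbered 1, and 0 to 2 with 1 library left out. That of other adhesion genes, also 1, was 0 with library totals, 2 in DESeq2, 2 with the replicate block, 2 without both libraries numbered 1, and 0 to 1 with 1 library left out. That of partner genes, 0, was 1 in DESeq2 and 1 without both libraries numbered 1. That of neuron markers, 3, was 1 with library totals and 0 to 4 with 1 library left out. All called genes numbered 32 with library totals, 55 without a filter and 55 with the replicate block. They numbered 65 in DESeq2 and 76 without both libraries numbered 1. With 1 library left out they numbered 17 (control 2), 18 (control 3), 22 (parthenote 3), 26 (parthenote 2), 42 (control 1) and 55 (parthenote 1). The cause of these changes was not tested. With the block, CDON was called as well, and the block changed no other call in the adhesion, partner and neuron lists. DSCAML1 had the fewest counts of the 9 genes, at 25 to 59 per library, and the part of depth in its spread was not tested.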
